A study of Mus musculus with 24 samples.

Results

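Cyclic AMP (cAMP) carries the signal of many receptors that couple to the stimulatory G protein, and the 10 genes described here make it, are switched on by it or break it down: Gnas, Adcy7, Adcy9, Prkaca, Prkacb, Prkar1a, Prkar2a, Pde4b, Pde4d and Pde7a. They were chosen by gene symbol for their place in this pathway, with earlier results of these data known. They are 10 of the 17109 genes listed in the expression tables of both stimuli. The study compared bone marrow-derived macrophages (BMDMs) of C57BL/6 mice with the dopamine receptor DRD5 (WT) and without it (DRD5-/-), at an age of 10 weeks, to ask how dopamine (DA) acts on macrophage polarization. Cells were stimulated for 12 hours either with LPS at 100 ng/ml and IFN-γ at 50 ng/ml (M1) or with IL-4 at 10 ng/ml and IL-13 at 10 ng/ml (M2), and either received DA or did not. RNA was sequenced on a BGISEQ-500 instrument, with 3 libraries in each of 8 groups and 24 libraries in all. WT and DRD5-/- cells that had LPS and IFN-γ alone are called M1 WT and M1 DRD5-/-, those that also had DA are called DA-treated M1 WT and DA-treated M1 DRD5-/-, and the IL-4 and IL-13 groups are named alike with M2. The knockout was made by genome editing with CRISPR-Cas9 and the mice were male, according to the study's methods.

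When a receptor such as DRD5 binds its ligand, the Gs alpha subunit is released and switches on adenylyl cyclases in the membrane, which make cAMP from ATP. cAMP binds the regulatory subunits of protein kinase A (PKA), which frees the catalytic subunits to phosphorylate their targets, among them the transcription factor CREB. Phosphodiesterases end the signal by hydrolysing cAMP, and in macrophages a rise in cAMP is known to dampen the release of inflammatory cytokines such as TNF.

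Levels are given in FPKM, fragment counts corrected for the length of the transcript and the depth of the library. Library totals ran from 476187 to 494459 in M1 and from 482310 to 503799 in M2. The number of reads behind them is unknown, as the FPKM values carry no read counts. All 8 macrophage markers, among them Adgre1, Csf1r, Cd68 and Lyz2, reached an FPKM of at least 1 in both stimuli. Lyz2 was the most abundant of them, and the 8 markers summed to a mean of 7534 and, with DA, 8215 in M1 WT, and of 7520 and 7482 in M1 DRD5-/-. In M2 the same sums were 10799 and, with DA, 8366 in WT, and 10922 and 11119.5 in DRD5-/-. The 8 markers of M1 stimulation, led by Nos2, summed to between 6533 and 6892.5 in the M1 groups, against between 18.4 and 27.1 in the M2 groups. Of the markers of M2 stimulation, Mrc1 read between 245 and 541 in the M2 libraries, against between 10.4 and 19.3 in the M1 libraries. The labelled cell type and both stimuli were therefore met by their markers.

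The deleted gene did not allow a check of the genotype. Drd5 was read in the M2 libraries alone, at 0 in 10 of 12, at 0.06 in library 2 of M2 WT and at 0.03 in library 2 of DA-treated M2 WT. Drd1, the other Gs-coupled dopamine receptor, was listed at 0 in 8 of 12 M1 libraries and at no more than 0.03 in the rest. In M2 it read 0.25, 0.13 and 0.2 in WT, 0.06, 0 and 0.03 in DA-treated WT, 0.18, 0.13 and 0.23 in DRD5-/-, and 0.19, 0.1 and 0.09 in DA-treated DRD5-/-. These levels were low in every library.

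Markers of other cell types moved with some groups. The neutrophil list in M1, with 3 of 6 genes reaching an FPKM of 1, S100a8 the most abundant and Elane at 0 in every library, summed to 35.2, 43.7 and 45 in WT, 68.2, 56.3 and 55.9 in DA-treated WT, 14.5, 18.2 and 15.7 in DRD5-/-, and 18.6, 17.3 and 19.9 in DA-treated DRD5-/-. Dendritic cell markers in M1, 2 of 5 at an FPKM of 1 or more and led by Ccr7 and none at 0 throughout, summed to 40.4, 38.1 and 39.9 in WT, 22, 22.4 and 21.5 in DA-treated WT, 40.6, 41.65 and 41.7 in DRD5-/-, and 43.1, 39.95 and 41.5 in DA-treated DRD5-/-. Fibroblast markers in M2, 5 of 5 at an FPKM of 1 or more and led by Dcn, summed to 127, 125 and 126 in WT, 103, 102 and 103 in DA-treated WT, 78.6, 79.03 and 80.7 in DRD5-/-, and 86.2, 86.45 and 87.5 in DA-treated DRD5-/-, with none at 0 throughout. The epithelial list in M2 rested on Cdh1, the only 1 of 6 genes to reach an FPKM of 1, with none at 0 throughout, and summed to 2.24, 2.23 and 2.27 in WT, 17, 16.8 and 17.2 in DA-treated WT, 1.09, 1.19 and 1.09 in DRD5-/-, and 1.03, 1.05 and 1.4 in DA-treated DRD5-/-. T cell markers in M1, with Lck the only 1 of 5 to reach an FPKM of 1 and none at 0 throughout, summed to 2.15, 1.94 and 2.32 in WT, 1.32, 0.79 and 1.2 in DA-treated WT, 2.3, 1.43 and 1.89 in DRD5-/-, and 1.77, 1.75 and 2.02 in DA-treated DRD5-/-, and averaged between 0.517 and 0.917 in M2. The part of these cells, or of these genes within macrophages, in the results on the 10 genes was not tested. Mean sums of the neutrophil and dendritic lists in M2 stayed between 0.32 and 1.16, that of the fibroblast list in M1 between 4.41 and 4.59, and that of the epithelial list in M1 between 0.0833 and 0.247. B cell markers, led by Cd79b, averaged between 0.397 and 0.763 over all groups. Erythroid markers, led by Hba-a2 in M1 and Hba-a1 in M2, averaged 1.81 and, with DA, 2.35 in M1 WT, 0.18 and 0.577 in M1 DRD5-/-, and between 0.433 and 0.773 in M2. The mean of 0.577 rested on library 1, as the 3 libraries of DA-treated M1 DRD5-/- summed to 1.6, 0.13 and 0. Mast cell and basophil markers, led by Kit, averaged between 0.29 and 0.39 in M1 and between 2.08 and 3.68 in M2.

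The levels of the 10 genes in the 8 groups follow by role, as means ± SD of 3 libraries, and fewer cells of a type and less RNA per cell cannot be told apart in them. They are given as deposited, and the order of M1 against M2 groups can depend on scaling. The median of all tested genes was −0.39 on the log2 scale in M1 WT against M2 WT. Coordinates are those of the RefSeq annotation on GRCm38.p6. Gnas (gene identifier 14683, chr2:174284320-174346744) encodes the Gs alpha subunit and was by far the most abundant of the 10 genes in every library. It was highest in M2 DRD5-/- (599 ± 19.1), then in M2 WT (562 ± 6.82) and in DA-treated M2 DRD5-/- (524 ± 10.8), and no library of these groups overlapped the next group. The remaining 5 groups overlapped along the order, from DA-treated M1 WT (419 ± 4.24) through M1 WT (416 ± 7.33), DA-treated M2 WT (407 ± 4.8) and M1 DRD5-/- (406 ± 7.18) to DA-treated M1 DRD5-/- (401 ± 9.51). As deposited, DA-treated M2 WT was thus the M2 group within the M1 range, a placing that depends on scaling. The log2 change of Gnas in M1 WT against M2 WT was −0.43 as deposited and 0.017 with median-of-ratios scaling. The locus also gives rise to the antisense transcript Gnasas1, whose reads cannot be told apart from those of Gnas if counting ignored strand, which the sources used here do not state.

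Adcy7 (11513, chr8:88272190-88329965) and Adcy9 (11515, chr16:4284886-4437236) encode membrane adenylyl cyclases, of which Adcy7 is a main form in immune cells. Adcy7 was highest in M2 WT (61.5 ± 0.191), with no overlap with DA-treated M2 WT (58.6 ± 0.217), which overlapped DA-treated M2 DRD5-/- (57.8 ± 0.848), which in turn overlapped M2 DRD5-/- (56.8 ± 0.319). The 4 M1 groups lay lower and overlapped each other, at 20.1 ± 0.872 in DA-treated DRD5-/-, 19.8 ± 0.582 in WT, 19.7 ± 0.211 in DA-treated WT and 19.7 ± 0.96 in DRD5-/-. Adcy7 shares part of its span with the protein-coding gene Brd7, so reads of the overlap may have been assigned to either. Adcy9 was much lower, at 7.44 ± 0.28 in DA-treated M2 DRD5-/-, above M2 WT (6.71 ± 0.191), M2 DRD5-/- (6.66 ± 0.142) and DA-treated M2 WT (6.49 ± 0.251), the last 3 of which overlapped. In M1 it stayed under an FPKM of 1, at 0.783 ± 0.0404 in DA-treated WT, clear of 0.64 ± 0.0781 in DA-treated DRD5-/-, 0.623 ± 0.0416 in DRD5-/- and 0.613 ± 0.0231 in WT, which overlapped.

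Prkaca (18747, chr8:83972978-83996444) and Prkacb (18749, chr3:146729579-146812946) encode the catalytic subunits of PKA. Prkaca was highest in DA-treated M2 WT (43.7 ± 2.1) and M2 DRD5-/- (43.1 ± 1.03), which overlapped, followed by M2 WT (39.9 ± 1.25) and DA-treated M2 DRD5-/- (38.4 ± 1.44), which overlapped too. Lower came M1 DRD5-/- (29.8 ± 1.46), DA-treated M1 DRD5-/- (29.5 ± 2.23) and M1 WT (27.8 ± 0.592), each overlapping the next, and then DA-treated M1 WT (26.7 ± 0.543). For Prkacb the 4 M2 groups stood apart from each other, at 52.8 ± 0.184 in DA-treated WT, 38 ± 0.416 in DA-treated DRD5-/-, 36 ± 1.05 in WT and 33.3 ± 0.205 in DRD5-/-. In both genotypes the DA-treated M2 cells were thus above their untreated counterparts. The M1 groups were lower, at 14.9 ± 0.784 in WT, 14.1 ± 0.575 in DA-treated DRD5-/- and 14.1 ± 0.626 in DRD5-/-, which overlapped, and 13.2 ± 0.237 in DA-treated WT, which did not.

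Prkar1a (19084, chr11:109649023-109669663) and Prkar2a (19087, chr9:108692143-108750444) encode regulatory subunits of type I and type II PKA, which hold the catalytic subunits inactive until cAMP binds. Prkar1a was the second most abundant of the 10 genes in every group, led by DA-treated M2 WT (112 ± 1.82) and M2 WT (105 ± 0.96), which did not overlap, ahead of the overlapping DA-treated M2 DRD5-/- (99.9 ± 2.02) and M2 DRD5-/- (98.5 ± 2.47). In M1 it read 64 ± 1.93 in DA-treated DRD5-/-, 63.4 ± 1.69 in DRD5-/- and 61.6 ± 1.31 in WT, which overlapped, and 54.4 ± 0.468 in DA-treated WT, below all of them. Prkar2a had a single group on top, DA-treated M2 WT at 24.2 ± 0.71, while DA-treated M2 DRD5-/- (12.1 ± 0.608), M2 WT (11.8 ± 0.728) and M2 DRD5-/- (11.6 ± 0.601) overlapped. All 4 M1 groups overlapped further down, at 3.78 ± 0.147 in WT, 3.76 ± 0.163 in DRD5-/-, 3.76 ± 0.25 in DA-treated DRD5-/- and 3.38 ± 0.294 in DA-treated WT. Prkar2a was thus set apart by DA in M2 WT alone among these 8 groups.

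Pde4b (18578, chr4:102087332-102607275), Pde4d (238871, chr13:108654177-109955969) and Pde7a (18583, chr3:19223108-19311322) encode phosphodiesterases that hydrolyse cAMP and not cGMP. Pde4b had the M1 groups on top, with DA-treated M1 DRD5-/- (24.2 ± 0.506), M1 DRD5-/- (23.5 ± 0.404) and M1 WT (23.3 ± 0.257) overlapping and DA-treated M1 WT (17.6 ± 0.299) below them. The M2 groups stood lower and apart from each other, at 4.27 ± 0.13 in DA-treated DRD5-/-, 3.98 ± 0.0458 in WT, 3.58 ± 0.342 in DRD5-/- and 2.47 ± 0.257 in DA-treated WT. Within each stimulus, DA-treated WT was therefore the lowest group. Pde4d never reached an FPKM of 1, and was highest in the overlapping DA-treated M2 DRD5-/- (0.693 ± 0.0252), M2 WT (0.657 ± 0.0723) and M2 DRD5-/- (0.643 ± 0.0651), above DA-treated M2 WT (0.44 ± 0.0721). Its 4 M1 groups overlapped, at 0.177 ± 0.0252 in WT, 0.177 ± 0.0289 in DA-treated WT, 0.173 ± 0.0603 in DRD5-/- and 0.157 ± 0.0231 in DA-treated DRD5-/-. Pde7a, a family apart from the PDE4 enzymes, differed less between the stimuli in FPKM as deposited. In M1 WT against M2 WT, Pde7a differed by 0.31 on the log2 scale, or by 0.70 relative to the median of all tested genes. It had M1 WT (5.92 ± 0.284), DA-treated M1 DRD5-/- (5.57 ± 0.202) and M1 DRD5-/- (5.44 ± 0.367) overlapping on top, and below them M2 WT (4.58 ± 0.51), DA-treated M1 WT (4.51 ± 0.272), DA-treated M2 DRD5-/- (4.5 ± 0.725), DA-treated M2 WT (4.27 ± 0.151) and M2 DRD5-/- (4.23 ± 0.571) overlapped along the order.

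**Figure D1:**
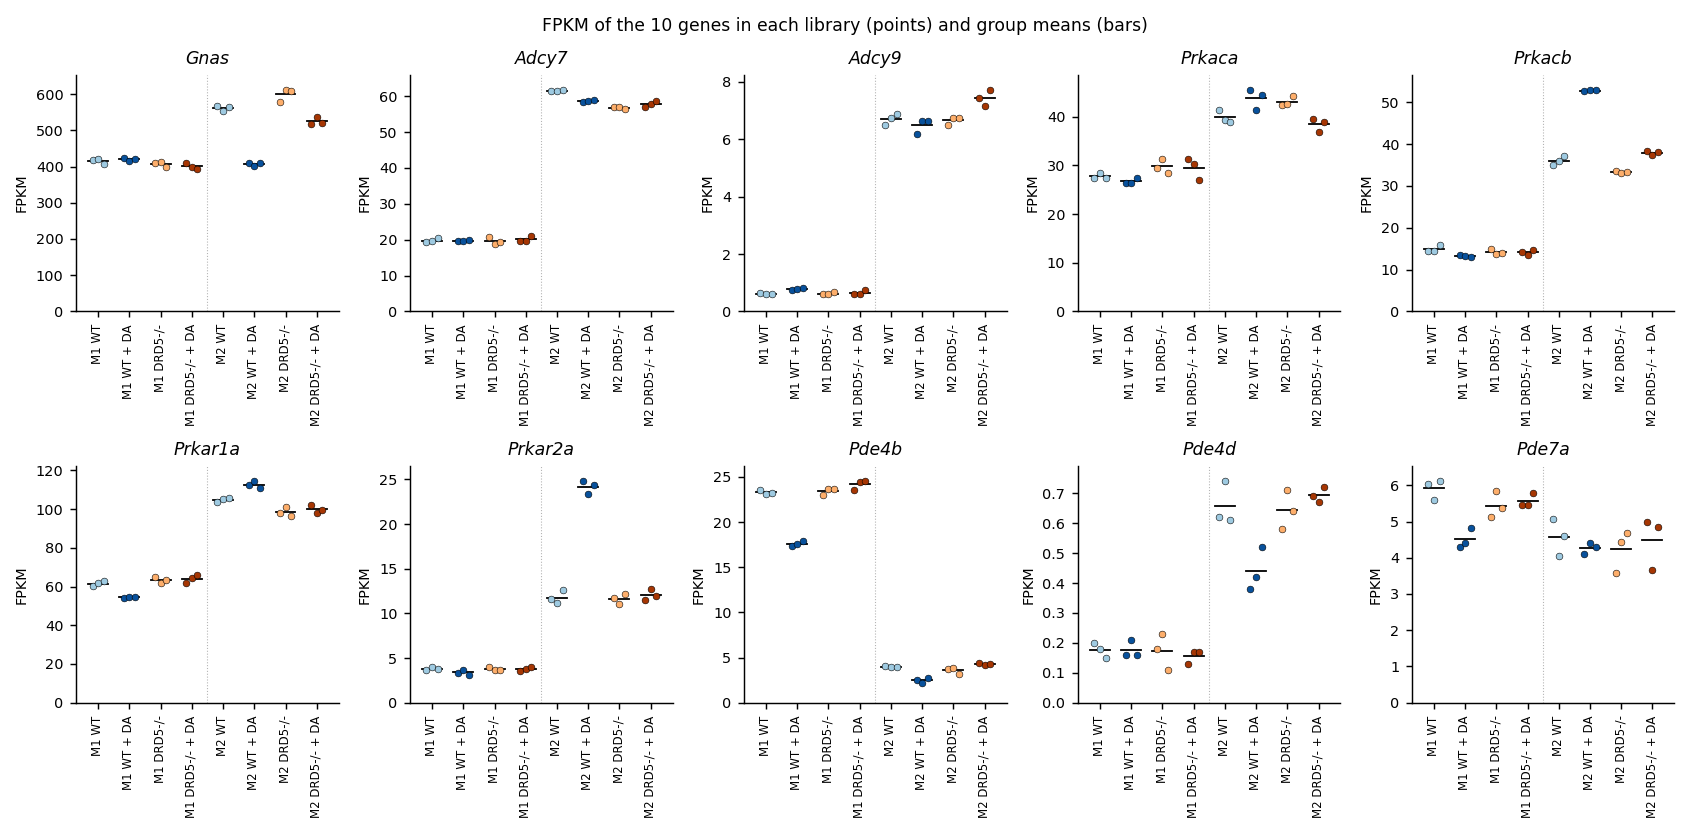
FPKM of the 10 genes (vertical axes, from 0, a panel each) in the 8 groups (horizontal axis), with a point for each of the 3 libraries and a bar at the group mean. DA-treated M2 WT stands above the other groups in Prkacb and Prkar2a, and DA-treated WT is the lowest group of its stimulus in Pde4b.

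The promoter sequences of the 4 genes that changed with DA in M2 WT, and of the gene with the full element below, are shown because CREB, a target of PKA, binds the cAMP response element, whose letters are TGACGTCA. RefSeq windows of 300 bases around transcript starts on GRCm38.p6 were found for 9 of the 10 genes, 25 windows in all, with none for Pde7a. The full element was searched together with its shorter form TGACG, on both strands, so that CGTCA counts as well, and each full element also holds the shorter form on both strands. Of 32851 windows of this length, 588 (1.79%) held TGACGTCA and 6837 (20.8%) held the shorter form. Prkar1a was the only member with the full element, in 2 of its 6 windows. These 2 windows overlap and hold the same copy of the element. The shorter form was in at least 1 window of 8 of the 9 genes, all but Pde4d, and in 12 of the 25 windows. Overlapping windows, such as those of Gnas at chr2:174327499-174327798 and chr2:174327518-174327817, can hold the same copy, so these are not 12 separate sites. Shown are the first window by position with the full element or, failing that, with the shorter form, of Gnas (chr2:174327499-174327798, plus strand), Prkacb (chr3:146812897-146813196, minus strand), Prkar1a (chr11:109650612-109650911, plus strand), Prkar2a (chr9:108691893-108692192, plus strand) and Pde4b (chr4:102421305-102421604, plus strand). Each runs 5′ to 3′ on the gene's strand, with the matched letters in capitals. The windows shown were picked for their match. The shorter form was in 3 of 4 windows of Gnas, 1 of 3 of Prkacb, 3 of 6 of Prkar1a, 1 of 1 of Prkar2a and 1 of 4 of Pde4b. A match describes the letters only, and nothing was measured at these windows. Which transcript start these cells use was not tested.
Gnas: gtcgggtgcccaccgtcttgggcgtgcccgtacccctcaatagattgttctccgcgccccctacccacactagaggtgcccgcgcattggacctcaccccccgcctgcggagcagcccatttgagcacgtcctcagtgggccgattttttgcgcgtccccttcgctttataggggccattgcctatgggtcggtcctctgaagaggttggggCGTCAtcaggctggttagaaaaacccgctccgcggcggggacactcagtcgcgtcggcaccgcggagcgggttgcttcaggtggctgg
Prkacb: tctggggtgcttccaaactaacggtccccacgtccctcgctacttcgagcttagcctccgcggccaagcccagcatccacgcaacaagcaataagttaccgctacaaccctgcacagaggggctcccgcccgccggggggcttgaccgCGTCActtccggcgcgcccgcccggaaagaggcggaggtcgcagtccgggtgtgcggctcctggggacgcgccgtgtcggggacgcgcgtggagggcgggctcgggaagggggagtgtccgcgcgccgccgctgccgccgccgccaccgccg
Prkar1a: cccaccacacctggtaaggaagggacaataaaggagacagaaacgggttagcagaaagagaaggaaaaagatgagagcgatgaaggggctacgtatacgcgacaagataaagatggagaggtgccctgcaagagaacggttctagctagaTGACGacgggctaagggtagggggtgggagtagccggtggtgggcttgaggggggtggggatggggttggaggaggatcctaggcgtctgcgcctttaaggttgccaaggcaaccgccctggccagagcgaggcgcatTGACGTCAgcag
Prkar2a: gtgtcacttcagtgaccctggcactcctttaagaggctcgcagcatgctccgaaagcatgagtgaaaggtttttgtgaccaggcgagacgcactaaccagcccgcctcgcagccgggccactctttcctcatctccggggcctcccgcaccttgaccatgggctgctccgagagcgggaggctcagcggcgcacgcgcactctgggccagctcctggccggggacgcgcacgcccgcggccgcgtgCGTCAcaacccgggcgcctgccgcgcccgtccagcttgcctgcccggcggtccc
Pde4b: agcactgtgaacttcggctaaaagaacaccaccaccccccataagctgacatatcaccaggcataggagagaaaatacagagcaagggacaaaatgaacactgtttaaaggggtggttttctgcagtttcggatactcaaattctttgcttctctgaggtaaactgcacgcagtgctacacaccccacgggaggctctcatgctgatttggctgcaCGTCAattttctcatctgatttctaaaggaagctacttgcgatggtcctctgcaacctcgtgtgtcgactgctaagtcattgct

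Between the stimuli, the cyclase Adcy7 and the PKA subunits Prkacb, Prkar1a and Prkar2a were lower in M1 WT than in M2 WT under each scaling, and the phosphodiesterase Pde4b was higher. This comparison asks how these genes differ between the polarized states before DA is added. Adcy7 read 19.2, 19.7 and 20.4 in the libraries of M1 WT and 61.3, 61.5 and 61.7 in those of M2 WT. Pde4b, by contrast, read 23.6, 23.1 and 23.3 in M1 WT and 4.03, 3.94 and 3.97 in M2 WT. Every M1 library lay below every M2 library for Adcy7 and above it for Pde4b. Changes were tested with limma on log2(FPKM + 1), a scale that understates the change of low genes, with Benjamini-Hochberg adjustment over all tested genes. To pass, a gene needed an adjusted p below 0.001 together with a 1.2-fold change or more, and nothing says that the libraries of a group came from separate cultures or animals, so p-values measure the spread between these samples. Only genes that reached an FPKM of 1 in 3 or more libraries were tested, which left out Adcy9 in M1 and Pde4d throughout, so 9 of the 10 genes entered here. Of these 9, 8 passed, 1 higher and 7 lower in M1, with Adcy9, tested through M2 alone, among the lower ones, where 77.5% of the 11148 genes passed, 22.6% higher and 54.9% lower, so that the share is near the background and is not a result about the members.

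The median of all genes was −0.39 between M1 WT and M2 WT on the log2 scale and −0.37 between the DRD5-/- groups, and scaling by median-of-ratios turned the split of the WT comparison, 2525 genes higher and 6118 lower, into 4044 and 4125, or 3649 and 4482 with quantile normalization. Changes are therefore given relative to that median as well. Adcy9 differed by −2.26 (−1.87 relative to the median; adjusted p 1.98e-22), Adcy7 by −1.59 (−1.20), Prkar2a by −1.42 (−1.03) and Prkacb by −1.22 (−0.83), lower in M1 under each scaling. Adcy9 was under an FPKM of 1 in all 12 M1 libraries and so entered the test only through M2, which favours a lower value in M1. Pde4b differed by 2.29, or 2.67 relative to the median, with an adjusted p of 6.25e-22 and a ratio of means of 5.86. Gnas (−0.43, or −0.045 relative to the median) turned to 0.017 with median-of-ratios scaling and lost its call with quantile normalization at −0.26, and Prkaca (−0.50, or −0.12) lost it at −0.067 with median-of-ratios scaling. Prkar1a (−0.76, or −0.37) came to −0.31 and Prkacb to −0.79 with median-of-ratios scaling, and both kept their calls. Pde7a differed by 0.31 (0.70 relative to the median; adjusted p 0.00166), which missed the threshold, and passed at 0.69 and 0.72 with the 2 scalings. It also passed without M2 WT library 1 (0.38), without M2 DRD5-/- library 1 (0.31) and without DA-treated M2 DRD5-/- library 2 (0.31). Pde4d, tested only with no filter on low FPKM, differed by −0.49 with an adjusted p of 1.05e-09. The stimulus cannot be told apart from anything else that differed between the 12 M1 and the 12 M2 libraries.

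The same contrast in DRD5-/- cells gave 8 of 9 genes past the threshold, 1 higher and 7 lower, Adcy9 again among the lower ones, where 77.2% of genes passed, again near the background. Its changes were −2.24 for Adcy9, −1.49 for Adcy7, −1.41 for Prkar2a, −1.18 for Prkacb and 2.42 for Pde4b, or −1.87, −1.12, −1.04, −0.81 and 2.79 relative to the median. Under median-of-ratios scaling, which split all genes 4025 higher and 4166 lower in place of 2614 and 5996 (3606 and 4539 with quantile normalization), Gnas went from −0.56 to −0.14, Prkaca from −0.52 to −0.11 and Prkar1a from −0.63 to −0.22. All 3 lost their calls there, while Prkacb went from −1.18 to −0.78 and kept it, and quantile normalization took Gnas to −0.36. Pde7a, at 0.30 (adjusted p 0.0022), passed with those scalings at 0.65 and 0.67, without M2 DRD5-/- library 3 (0.37) and without DA-treated M2 DRD5-/- library 2 (0.30). Whether the stimuli differed by other amounts in the 2 genotypes was not tested.

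**Figure D2:**
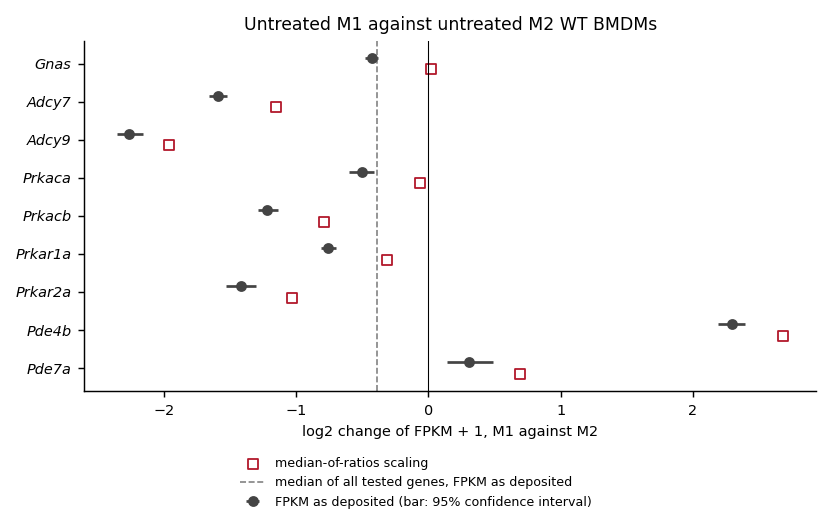
Log2 change (horizontal axis) of each tested gene (vertical axis) in M1 WT against M2 WT, as deposited with its 95% confidence interval and with median-of-ratios scaling, beside a dashed line at the median of all tested genes. Pde4b stands far to the right and Adcy9 far to the left, while Gnas lies near the dashed line and turns to 0.017 with that scaling.

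DA treatment of M1 WT cells lowered the transcripts of the phosphodiesterases Pde4b and Pde7a, the enzymes that remove cAMP, and of no cyclase or PKA subunit by the size the test required. This comparison asks what DA does to inflammatory macrophages that have DRD5. Pde4b read 23.6, 23.1 and 23.3 in M1 WT and 17.4, 17.6 and 17.9 in DA-treated M1 WT. Pde7a read 6.05, 5.59 and 6.11 in M1 WT and 4.3, 4.42 and 4.82 in DA-treated M1 WT. For both genes the highest DA-treated library lay below the lowest untreated library. Pde4b fell by 0.39 on the log2 scale (SE 0.0316, 95% confidence interval −0.45 to −0.32, adjusted p 2.07e-07 by limma, lower in 3 of 3 libraries), a ratio of means of 0.756. Pde7a fell by 0.33 (SE 0.0574, interval −0.45 to −0.20, adjusted p 0.000323, lower in 3 of 3 libraries). These were 2 of the 8 genes tested in M1, where 14.3% of 10040 genes passed, 4.73% higher and 9.6% lower, and 4 of the 8 had an unadjusted p under 0.05, as had 5249 of the 10040 genes. The split of all genes, 475 higher and 964 lower, became 676 and 539 with median-of-ratios scaling and 641 and 586 with quantile normalization. Pde7a lost its call with both scalings (−0.27 and −0.26), with no filter on low FPKM (−0.33), and without library 1 (−0.30) or 2 (−0.32) of DA-treated M1 WT or library 1 (−0.31) or 3 (−0.31) of M1 WT, which left 1 member.

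Prkar1a, the main regulatory subunit, read 60.2, 61.6 and 62.8 in M1 WT and 53.9, 54.7 and 54.7 in DA-treated M1 WT, again without overlap. Its change of −0.17 (SE 0.0306, adjusted p 0.000318) was under 1.2-fold and so did not pass. Prkacb differed by −0.16 (adjusted p 0.0113), Prkar2a by −0.13 (0.108) and Gnas by 0.011 (0.757). Prkaca differed by −0.057 (0.362), which turned to 0.015 and 0.00045 with the 2 scalings, and Adcy7 by −0.0013 (0.983), which turned to 0.069 and 0.075. The median of the 8 members was −0.14, against −0.067 over all genes. Adcy9, tested only with no filter on low FPKM, read 0.64, 0.6 and 0.6 in M1 WT and 0.74, 0.79 and 0.82 in DA-treated M1 WT, a change of 0.14 with an adjusted p of 0.0235 that did not pass. Brd7, which overlaps Adcy7 and is named for that reason, fell by 0.28 in this comparison (adjusted p 7.38e-06), from a mean of 21.9 to 17.9.

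Without DRD5, DA left no member past the threshold in M1, where the question is whether DA acts through another receptor. Pde4b read 23, 23.7 and 23.7 in M1 DRD5-/- and 23.6, 24.4 and 24.5 in DA-treated M1 DRD5-/-, and Pde7a read 5.12, 5.84 and 5.36 and 5.45, 5.45 and 5.8, so that both pairs of groups overlapped. By limma, 0 of 8 members passed, where 0% of all genes did, 0 members and 569 genes had an unadjusted p under 0.05, and the count of genes was 0 with each alternative setting tried. The changes were 0.04 for Pde4b (interval −0.027 to 0.11, adjusted p 0.898) and 0.029 for Pde7a (interval −0.094 to 0.15, adjusted p 0.957), and the other 6 lay between −0.021 and 0.032. The difference between the DA effects in WT and DRD5-/- was tested itself. It passed for Pde4b at −0.43 (SE 0.0446, interval −0.52 to −0.33, adjusted p 6.46e-06), 1 of 8 members, where 8.38% of genes passed. For Pde7a it was −0.36 (SE 0.0812, adjusted p 0.00423) and for Prkar1a −0.19 (adjusted p 0.00459), and neither passed, nor did Prkacb at −0.16 (adjusted p 0.0776). The 321 genes higher and 520 lower in this test became 460 and 260 with median-of-ratios scaling and 418 and 322 with quantile normalization.

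**Figure D3:**
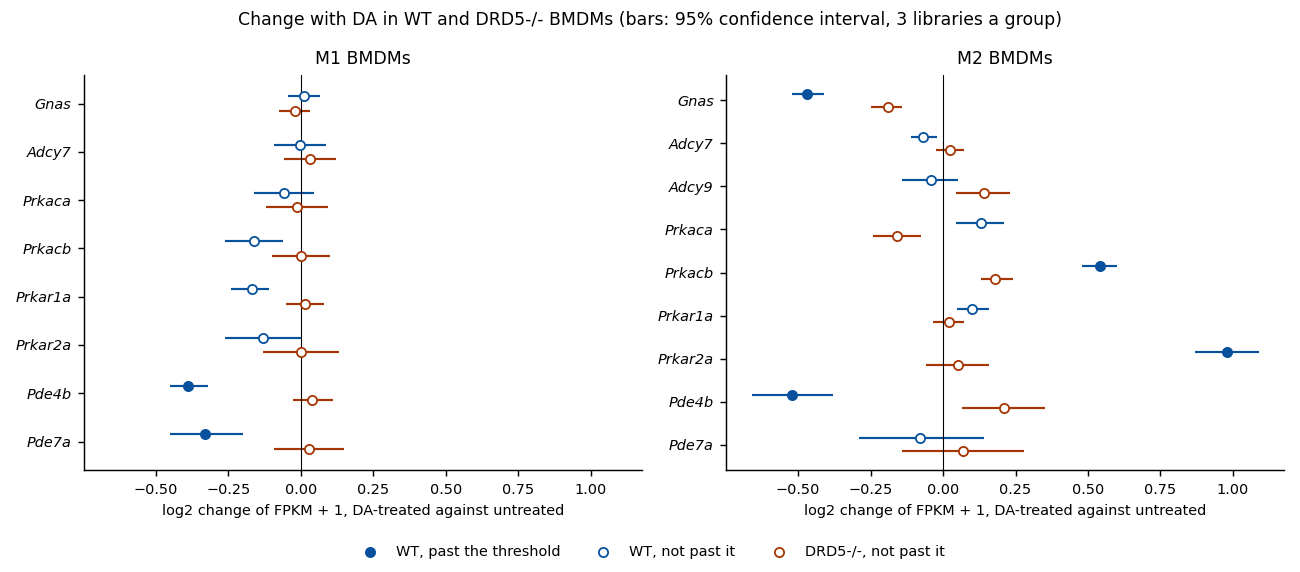
Log2 change with DA (horizontal axis) of each tested gene (vertical axis) in M1 (left panel) and M2 (right panel), in WT (blue) and DRD5-/- (brown), with 95% confidence intervals from limma and filled points where the change passed the threshold. Pde4b fell by 0.39 in M1 WT and by 0.52 in M2 WT, and no DRD5-/- point is filled.

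In M2 WT cells the PKA subunits Prkacb and Prkar2a rose with DA, and the Gs alpha subunit Gnas and the phosphodiesterase Pde4b fell, in a comparison in which much of the transcriptome moved. This comparison asks what DA does to alternatively activated macrophages that have DRD5. Gnas read 567, 554 and 565 in M2 WT and 409, 401 and 409.8 in DA-treated M2 WT. Prkacb read 35, 36.1 and 37.1 in M2 WT and 52.6, 52.9 and 52.9 in DA-treated M2 WT. Prkar2a, the type II regulatory subunit that A-kinase anchoring proteins tether, showed the largest change of the 9 tested members. It read 11.6, 11.1 and 12.6 in M2 WT and 24.8, 23.4 and 24.4 in DA-treated M2 WT, and Pde4b read 4.03, 3.94 and 3.97 and 2.51, 2.2 and 2.71. In none of these 4 genes did a treated library overlap an untreated one.

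Gnas fell by 0.47 (SE 0.0253, interval −0.52 to −0.41, adjusted p 6.21e-10 by limma, lower in 3 of 3 libraries), a ratio of means of 0.724. Prkacb rose by 0.54 (SE 0.0262, interval 0.48 to 0.60, adjusted p 1.86e-10, higher in 3 of 3), a ratio of 1.47. Prkar2a rose by 0.98 (SE 0.0503, interval 0.87 to 1.09, adjusted p 3.33e-10, higher in 3 of 3), a ratio of 2.06. Pde4b, the phosphodiesterase that fell in M1 as well, fell by 0.52 (SE 0.0651, interval −0.66 to −0.38, adjusted p 5.10e-06, lower in 3 of 3), a ratio of 0.621. These were 4 of 9 tested members, 2 higher and 2 lower, where 46.3% of 10735 genes passed, 25.9% higher and 20.4% lower, so that the count is near the background and is not a result about the members. The 4 calls and their directions held with each scaling, pseudocount, filter and left-out library, and none of the 4 changes reached 2-fold on this scale. The median of the 9 members was −0.042, against 0.031 over all genes.

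The other members moved less. Prkaca read 41.3, 39.3 and 39 in M2 WT and 45.5, 41.4 and 44.4 in DA-treated M2 WT, a difference of 0.13 (adjusted p 0.00796) with no overlap. Prkar1a, at 104, 105 and 105 and 112, 114 and 111, differed by 0.10 (adjusted p 0.00216), and Adcy7 by −0.068 (0.0118), both without overlap between the groups and below the threshold. Adcy9 (−0.042, adjusted p 0.393) and Pde7a (−0.078, adjusted p 0.491) overlapped. Pde4d, with no filter on low FPKM, read 0.62, 0.74 and 0.61 in M2 WT and 0.38, 0.42 and 0.52 in DA-treated M2 WT, a difference of −0.20 with an adjusted p of 0.00354.

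In M2 cells without DRD5, where the comparison asks for an effect of DA that needs no DRD5, no member passed, although Gnas and Prkacb moved the same way as in WT. Gnas read 577, 611 and 609 in M2 DRD5-/- and 517, 537 and 519 in DA-treated M2 DRD5-/-. Prkacb, a PKA catalytic subunit, read 33.5, 33.1 and 33.3 and 38.3, 37.5 and 38. Neither pair of groups overlapped. The differences of −0.19 in Gnas (SE 0.0253, adjusted p 9.95e-05, −0.073 with quantile normalization) and 0.18 in Prkacb (SE 0.0262, adjusted p 0.000188) met the adjusted p and were under 1.2-fold. By limma 0 of 9 members passed, where 4.02% of genes did, and 5 of 9 had an unadjusted p under 0.05, as had 4570 of 10735 genes, with 0 passing under each alternative setting and with each library left out. Prkaca differed by −0.16 (adjusted p 0.0069), Pde4b by 0.21 (0.0272) and Adcy9 by 0.14 (0.0251), each without overlap. Prkar2a read 11.7, 11 and 12.2 and 11.5, 12.7 and 12, which overlapped, a difference of 0.05 (interval −0.059 to 0.16, adjusted p 0.483). All genes past the threshold split 362 higher and 70 lower, or 293 and 127 with median-of-ratios scaling.

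The test of the difference between the DA effects in M2 WT and M2 DRD5-/- passed for 5 of 9 members, where 43.2% of genes passed, so this count too is near the background. Prkar2a differed most, by 0.93 (SE 0.0712, interval 0.78 to 1.08, adjusted p 4.43e-08), and Pde4b, which lay lower with DA in WT and higher with DA in DRD5-/-, by −0.73 (SE 0.092, interval −0.93 to −0.53, adjusted p 7.92e-06). Prkacb differed by 0.36 (SE 0.0371, adjusted p 1.09e-06), Gnas by −0.27 (SE 0.0358, adjusted p 1.08e-05) and Prkaca by 0.29 (SE 0.0552, adjusted p 0.000331). The DA effect on Prkaca was thus positive in WT and negative in DRD5-/-, each below the threshold by itself. Gnas came to −0.50 with quantile normalization and lost its call, for size alone, without library 2 of DA-treated M2 DRD5-/- (−0.26) or library 1 of M2 DRD5-/- (−0.25). Prkaca lost its call with quantile normalization (0.21), with no filter on low FPKM (0.29), with no intensity trend (0.29), and without library 2 of DA-treated M2 DRD5-/- (0.26), library 3 of M2 DRD5-/- (0.27), library 1 (0.26) or 3 (0.28) of DA-treated M2 WT, or library 2 of M2 WT (0.28). Without library 2 of DA-treated M2 DRD5-/- the count was 3. Adcy9 (−0.18, adjusted p 0.0173), Adcy7 (−0.092, 0.0166), Pde7a (−0.15, 0.368) and Prkar1a (0.082, 0.054) did not pass, and Prkar1a turned to −0.023 with quantile normalization.

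Loss of DRD5 without DA changed no member past the threshold in either stimulus, in the comparison that asks what the receptor does before DA is added. Adcy7, the main cyclase, had the lowest adjusted p of the members in M2, at 61.3, 61.5 and 61.7 in M2 WT and 56.9, 57 and 56.4 in M2 DRD5-/-. The groups did not overlap, and the difference was −0.11 (SE 0.0218, adjusted p 0.00167). By limma 0 of 9 members passed in M2, where 5.51% of genes did, and 5 had an unadjusted p under 0.05, as had 4021 of 10735 genes. Gnas differed by 0.092 (adjusted p 0.0162), Prkacb by −0.11 (0.00742), Prkar1a by −0.088 (0.0197) and Prkaca by 0.11 (0.0553), all without overlap. The 147 genes higher and 445 lower became 225 and 336 with median-of-ratios scaling and 188 and 338 with quantile normalization. In M1, 0 of 8 members passed, where 0.936% of genes did (94 genes), and 0 members and 2557 genes had an unadjusted p under 0.05. The count of genes was 36 without library 2 of M1 DRD5-/-, 57 without its library 3 and 45 without library 3 of M1 WT, and the count of members was 0 in each setting tried in both stimuli. All 8 members overlapped or touched between M1 WT and M1 DRD5-/-, and the changes lay between −0.10 for Pde7a and 0.095 for Prkaca.

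With DA present, DRD5-/- cells held more Pde4b than WT cells in both stimuli, and in M2 also more Gnas and less Prkacb and Prkar2a. These comparisons ask how the genotypes differ under DA, and they share their DA-treated WT libraries with the comparisons of DA in WT, so they are no independent evidence for them. In M1, Pde4b was higher by 0.43 (SE 0.0316, adjusted p 4.91e-08 by limma, 3 of 3 libraries), 1 of 8 members, where 18.5% of genes passed. Prkar1a was higher by 0.23 (adjusted p 2.17e-05), under 1.2-fold, Pde7a by 0.25 (0.00204) and Prkaca by 0.14 (0.0276), and Gnas differed by −0.066 (0.0401). In M1 the 1264 genes higher and 597 lower in DRD5-/- became 792 and 875 with median-of-ratios scaling and 836 and 830 with quantile normalization. In M2, Pde4b was higher by 0.60 (SE 0.0651, adjusted p 1.01e-06) and Gnas by 0.37 (SE 0.0253, adjusted p 7.96e-09, 0.57 with quantile normalization). Prkar2a differed by −0.95 (SE 0.0503, adjusted p 4.42e-10) and Prkacb by −0.47 (SE 0.0262, adjusted p 8.16e-10), lower in 3 of 3 libraries. These 4 of 9 members stand beside 49.7% of all genes and are near that background. Prkaca (−0.18, adjusted p 0.000689) and Prkar1a (−0.17, 2.63e-05) met the adjusted p and were under 1.2-fold, and with quantile normalization came to −0.083 (0.0783) and −0.055 (0.0634).

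Whether DA acted alike on the pathway in the 2 stimuli was tested as the difference between its effects in M1 WT and M2 WT, and 4 of 9 members passed, where 45.9% of genes did, near the background. The DA effect in M1 minus that in M2 was 0.48 for Gnas (SE 0.0349, adjusted p 4.82e-11), since Gnas fell with DA in M2 and read 419, 422 and 408 in M1 WT and 422, 415 and 422 in DA-treated M1 WT. It was −0.70 for Prkacb (SE 0.051, adjusted p 4.67e-11) and −1.11 for Prkar2a (SE 0.0787, adjusted p 2.81e-11), the PKA subunits that rose in M2. In M1, Prkacb read 14.4, 14.5 and 15.8 and, with DA, 13.5, 13.2 and 13, and Prkar2a 3.67, 3.95 and 3.73 and 3.3, 3.71 and 3.14, lower means with DA in both. Prkar1a differed by −0.28 (SE 0.0379, adjusted p 1.09e-06), a call lost with median-of-ratios scaling (−0.20), with quantile normalization (−0.15) and without library 3 of M1 WT (−0.26). Pde4b, which fell in both stimuli, differed by 0.14 (interval −0.0075 to 0.28, adjusted p 0.086), and Prkaca (−0.19, 0.0147), Adcy9 (0.19, 0.0145), Pde7a (−0.25, 0.0725) and Adcy7 (0.067, 0.193) did not pass. All genes split 1965 higher and 3149 lower, or 2600 and 2480 with quantile normalization.

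Ratios of FPKM show how the paralogues of each step stood to each other with and without DA in M2 WT. These ratios are descriptions, with no test. Prkacb per Prkaca was 0.846, 0.917 and 0.95 in M2 WT and 1.16, 1.28 and 1.19 in DA-treated M2 WT, so the beta transcript went from below to above the alpha transcript in every library. In M2 DRD5-/- it was 0.791, 0.779 and 0.753, and 0.97, 1.02 and 0.977 with DA, and the means in the 4 M1 groups lay between 0.476 and 0.536. Prkar2a per Prkar1a was 0.112 ± 0.00654 in M2 WT and 0.215 ± 0.00904 in DA-treated M2 WT, against 0.118 ± 0.00902 and 0.121 ± 0.00849 in M2 DRD5-/-. Prkar1a made up 86.2 ± 0.35% of the 4 regulatory transcripts in M2 WT and 76.9 ± 0.747% in DA-treated M2 WT, and 86.3% and 85.5% in the DRD5-/- groups. The ratio of catalytic to regulatory transcripts moved much less. It was 0.625 ± 0.00879 in M2 WT and 0.66 ± 0.0161 in DA-treated M2 WT, 0.67 ± 0.0188 and 0.653 ± 0.00999 in the DRD5-/- groups, and between 0.566 and 0.588 in M1.

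The phosphodiesterase and cyclase families differed in what stood beside the members. Pde4b was 86.5 ± 0.502% of the summed Pde4a to Pde4d transcripts in M1 WT and 84.7 ± 0.279% in DA-treated M1 WT, and the sum went from 27 ± 0.165 to 20.8 ± 0.287 FPKM with it. In M2 WT its share went from 36.9 ± 1.48% to 22.7 ± 1.58% with DA while the sum stayed at 10.8 ± 0.416 and 10.9 ± 0.395 FPKM, because Pde4a rose from a mean of 5.97 to 7.74. In M2 DRD5-/- the share was 36.7% without DA and 40.9% with it. Adcy7 made up between 90.9% and 91.2% of the summed adenylyl cyclase transcripts in the M1 groups. In M2 WT its share went from 79.2 ± 0.528% to 83.9 ± 0.644% with DA as the sum went from 77.7 ± 0.761 to 69.9 ± 0.654 FPKM, and in the M2 DRD5-/- groups the share was 77.5% and 76.9%. Most of that decrease in the sum lay in Adcy3, a cyclase outside the 10 genes.

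**Figure D4:**
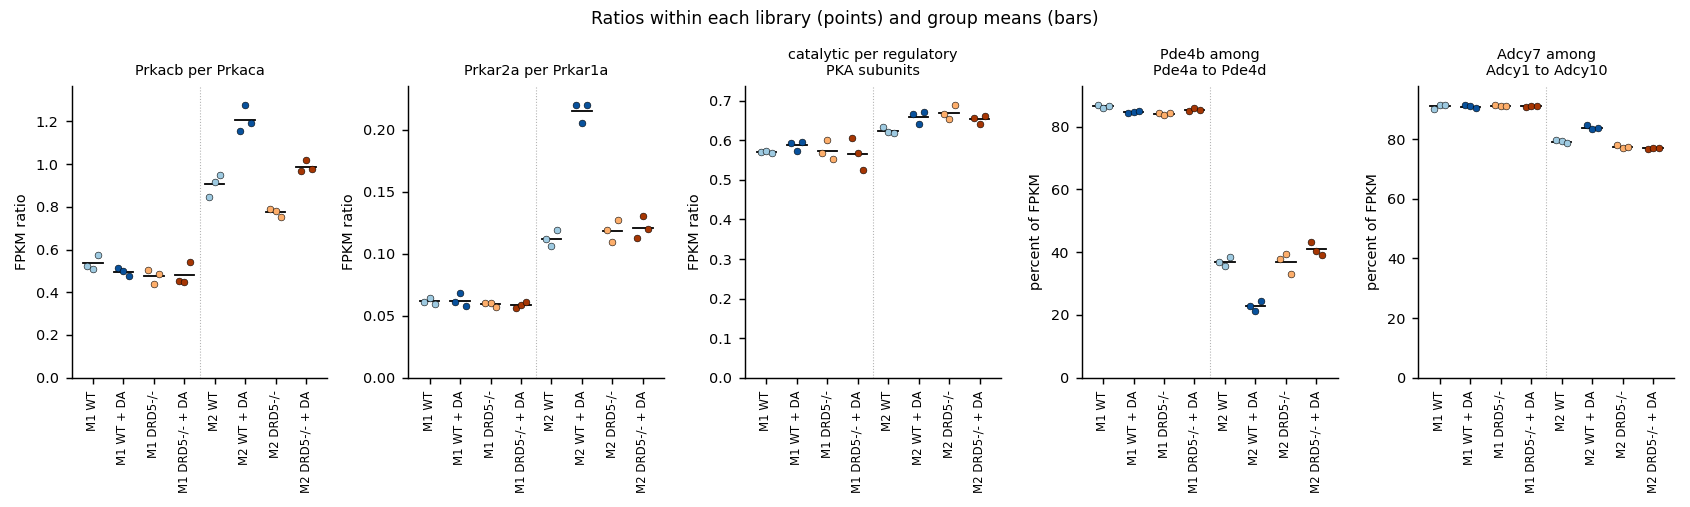
Ratios and shares of FPKM (vertical axes, a panel each) in the 8 groups (horizontal axis), a point per library and a bar at the group mean: Prkacb per Prkaca, Prkar2a per Prkar1a, catalytic per regulatory subunits, Pde4b as a percentage of Pde4a to Pde4d and Adcy7 as a percentage of the adenylyl cyclases. Prkar2a per Prkar1a is near 0.2 in DA-treated M2 WT and near 0.1 in the other M2 groups.

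The wider pathway was read from 7 lists of 123 genes: Gs-coupled receptors, G protein subunits and regulators, adenylyl cyclases, PKA subunits and inhibitors, A-kinase anchoring proteins, cyclic nucleotide phosphodiesterases, and other cAMP effectors and exporters. In DA-treated against untreated M1 WT, 12 of 64 tested genes passed (18.8%, beside 14.3% of all genes), 6 higher and 6 lower, or 7 and 3 with either scaling, and the median of −0.03 turned to 0.029 with both. Phosphodiesterases made up 4 of the 6 lower genes (Pde2a, Pde3b, Pde4b and Pde7a, of 11 tested), and none was higher, where 9.6% of all genes were lower and 4.73% higher. Pde3b was under an FPKM of 1 in DA-treated M1 WT and above it in the other M1 groups, so it was tested only through those, which favours a lower call. Gs-coupled receptors gave 3 higher (Ptger2, Ptgir and Calcrl) and 2 lower (Adora2a and Gpr65) of 10, with Adora2a, Gpr65 and Pde7a lost under both scalings, and G protein regulators gave 3 higher (Rgs1, Rgs2 and Grk5) of 25. None of 7 PKA genes, 8 anchoring proteins, 1 cyclase or 2 other effectors passed. The 3 largest changes outside the 10 genes were in Rgs2, Pde2a and Rgs1. Rgs2, which speeds the shut-off of G proteins, rose by 0.77 (adjusted p 2.47e-07), from a mean of 6.94 to 12.5. Pde2a, a phosphodiesterase of both cAMP and cGMP, fell by 0.53 (adjusted p 3.68e-06), from 4.06 to 2.5, and Rgs1, of the same family as Rgs2, rose by 0.49 (adjusted p 2.61e-07), from 115 to 162. The DA effects on these genes differed between WT and DRD5-/- by 0.76, −0.57 and 0.50 (adjusted p 2.32e-05, 0.000104 and 1.67e-05).

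In DA-treated against untreated M2 WT, 33 of 67 tested genes of the lists passed (49.3%), 17 higher and 16 lower, or 14 and 15 with quantile normalization, near the 46.3% of all genes. Of 8 PKA genes 3 rose (Prkacb, Prkar2a and Prkar2b), and of 9 phosphodiesterases 2 rose (Pde4a and Pde8a) and 4 fell (Pde1b, Pde3b, Pde4b and Pde7b). Of 4 cyclases, Adcy3 alone fell. G protein subunits and regulators had 7 higher and 4 lower of 26, anchoring proteins 1 higher (Akap1) and 1 lower (Akap8l) of 9, and other effectors 1 higher (Abcc4) and 2 lower (Rapgef3, under an FPKM of 1 in DA-treated M2 WT, and Abcc5) of 3. Rgs16, a shut-off factor of G proteins, rose by 1.23 (SE 0.0587, adjusted p 1.48e-10), from a mean of 2.84 to 8.01. Prkar2b, the other type II regulatory subunit, rose by 1.14 (SE 0.0578, adjusted p 2.98e-10), from 2.72 to 7.21, and Adcy3 fell by 1.09 (SE 0.0466, adjusted p 4.70e-11), from 7.84 to 3.16. The DA effects on these 3 genes differed between WT and DRD5-/- by 1.10, 0.83 and −1.08 (adjusted p 3.73e-08, 6.22e-07 and 3.90e-09). Both type II regulatory subunits thus rose with DA in M2 WT, and Prkar2b differed by 0.31 (adjusted p 0.00133) with DA in M2 DRD5-/-, which did not pass.

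**Figure D5:**
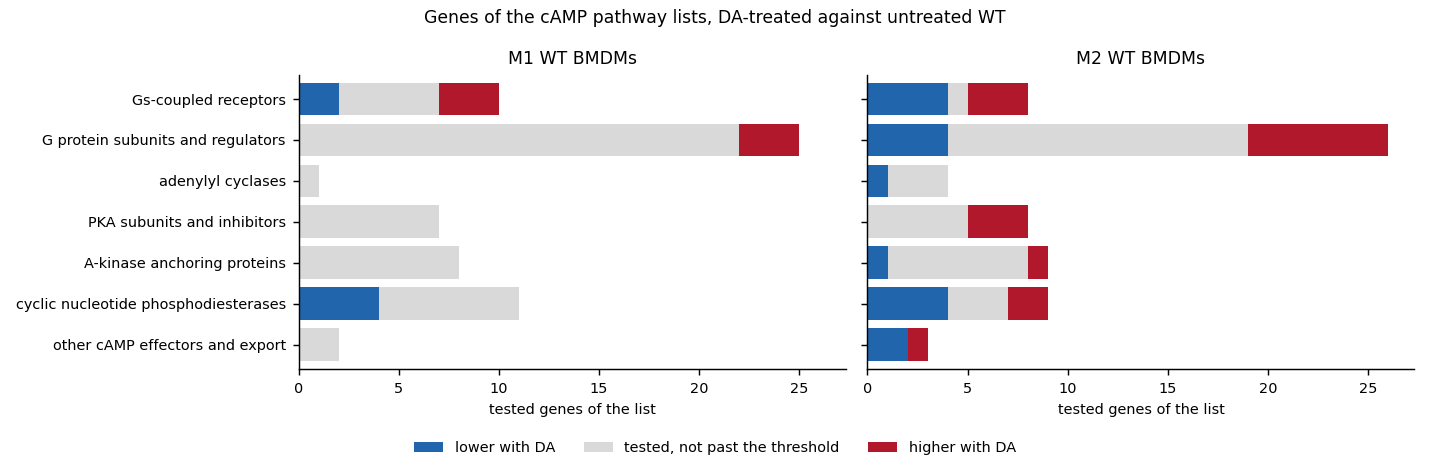
Number of tested genes (horizontal axis) lower, not past the threshold and higher with DA in each of the 7 lists (vertical axis), for M1 WT and M2 WT. In M1 WT the phosphodiesterases hold 4 lower genes, 3 under the other scalings, and no higher gene, with Pde3b tested only through groups in which it was high.

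With DA in DRD5-/- cells, 0 of 64 genes of the lists passed in M1 by limma, and 5 of 67 in M2 (7.46%, beside 4.02% of all genes), none of them among the 10 genes: Arrb1, Akap11, Akap13 and Abcc5 were higher and Rgs1 lower, a count of 4 with median-of-ratios scaling and 2 with quantile normalization. The test of the difference between genotypes passed for 6 of 64 in M1 (9.38%) and 34 of 67 in M2 (50.7%, 28 with quantile normalization), beside 8.38% and 43.2% of all genes. Without DA, DRD5-/- differed from WT in 1 of 64 in M1 (Arrb2) and 3 of 67 in M2 (Rgs1 higher, Ptgir and Gng10 lower), beside 0.936% and 5.51% of all genes. With DA it did so in 15 of 64 (9 higher and 6 lower, or 7 and 7 with either scaling) and 37 of 67, beside 18.5% and 49.7% of all genes. The counts of 5 or fewer name their genes after the values were seen. Between M1 WT and M2 WT 57 of 72 passed (79.2%, near the 77.5% of all genes), 22 higher and 35 lower, or 30 and 26 with median-of-ratios scaling and 26 and 30 with quantile normalization. Genes under an FPKM of 1 in all libraries of a stimulus, such as Adcy2, Adcy3 and Prkar1b in M1, entered this test only through the other stimulus, which favours a call in that direction, so these counts follow in part from the filter. The largest changes outside the 10 genes were in Rgs10 (−3.48, or −3.09 relative to the median, means of 15.1 and 178), Gipr (3.35, or 3.74, means of 10.7 and 0.147, tested only through M1) and Rgs18 (−3.34, or −2.95, means of 1.2 and 21.3).

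The gene whose pattern over the 24 libraries was most like each member is given as a description, from Pearson's r of log2(FPKM + 1) after the mean of its stimulus was taken off, over 9620 genes tested in both stimuli. Within the 10 genes, Prkacb and Prkar2a followed each other (r 0.94), and Gnas ran opposite to both (−0.95 and −0.93). Gnas was most like Saraf (0.988), Prkacb most like Caprin1 (0.984) and Prkar2a most like Trib3 (0.984). Pde4b was most like Prex1 (0.971), Prkar1a most like Gpat4 (0.939), Pde4d most like Mknk1 (0.898) and Adcy9 most like Plekhm3 (0.882). Prkaca with Fkbp8 (0.824), Pde7a with Papss1 (0.756) and Adcy7 with Ppm1b (0.733) were the least close pairs. These libraries share groups of 3, so the values mostly reflect the group means.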

How the data were processed

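RNA of BMDMs was measured in 24 libraries, 3 in each of 8 groups. The FPKM values were made by the authors, who filtered BGISEQ-500 reads, mapped them with HISAT2, counted them per gene and normalized the counts, and were used as deposited. The submitters' processing notes also name Bowtie2 2.2.5 and GRCm38.p6, and the counting program is not stated. The number of reads is unknown, and values have 2 decimals.

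Differences were fitted in R 4.3.3 with limma 3.58.1 on log2(FPKM + 1), with group means, an intensity trend and Benjamini-Hochberg adjustment, within each stimulus and, for comparisons of stimuli, over all 24 libraries. Genes needed an FPKM of 1 in 3 libraries, and a call an adjusted p under 0.001 with a 1.2-fold change. The steps were tested on simulated data. Tables and figures were made with Python 3.11.15, numpy 2.4.6, pandas 2.3.3 and matplotlib 3.10.9. Alternatives were a pseudocount of 0.1, no filter, median-of-ratios scaling, quantile normalization, the replicate number as a factor, the compared groups alone, no intensity trend, an adjusted p under 0.05, a 2-fold change and leaving out each library.

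The 10 genes are named in every comparison. Other genes are named where a pathway list had a call or held 1 of the 3 largest changes outside the 10 genes with DA in WT of each stimulus and between the stimuli in WT, where their span overlaps that of a member, as the gene most alike to a member, and as the receptors Drd1 and Drd5. Marker lists covered macrophages, M1 and M2 stimulation, T cells, B cells, neutrophils, dendritic cells, fibroblasts, epithelial cells, erythroid cells and mast cells or basophils, and some results of the lists are not reported here. The members and lists were chosen with earlier results of these data known. Promoter windows came from the RefSeq annotation of GRCm38.p6 and its sequence. Protein measurements were not used here.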

Additional observations from a re-analysis of the deposited data

Results flagged for a closer look

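These results were marked because the effect of DA differed between the genotypes or between the stimuli when that difference was tested with limma. In M1, the effect of DA on Pde4b was lower in WT than in DRD5-/- by 0.43 on the log2 scale (value −0.43, adjusted p 6.46e-06), with group means of 23.3 and 17.6 in WT and 23.5 and 24.2 in DRD5-/- without and with DA. In M2, the difference was 0.93 for Prkar2a, with means of 11.8 and 24.2 in WT and 11.6 and 12.1 in DRD5-/-. It was −0.73 for Pde4b, with means of 3.98 and 2.47 in WT and 3.58 and 4.27 in DRD5-/-. For Prkacb it was 0.36, with means of 36 and 52.8 in WT and 33.3 and 38 in DRD5-/-. It was −0.27 for Gnas, with means of 562 and 407 in WT and 599 and 524 in DRD5-/-, a call lost in 3 of 20 other settings and a value of −0.50 with quantile normalization. It was 0.29 for Prkaca, with means of 39.9 and 43.7 in WT and 43.05 and 38.4 in DRD5-/-, a call lost in 9 of 20 other settings, with quantile normalization among them.

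Between the stimuli, the effect of DA in M1 WT minus that in M2 WT was 0.48 for Gnas, −0.70 for Prkacb, −0.28 for Prkar1a and −1.11 for Prkar2a. The call of Prkar1a was lost in 4 of 32 other settings, with both scalings among them. The tests by genotype in M2 and by stimulus share the M2 WT libraries, so these marks do not add to each other. The share of all genes that passed was 43.2% in the first and 45.9% in the second, and what set these differences was not tested.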

How the results depend on the processing

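The FPKM values carry no read counts, so the depth of a library is unknown and what it limits cannot be given. Nothing tells whether the 3 libraries of a group came from separate cultures or mice, Drd5 could not be used to check the genotype, and the labels' growth protocol names another tissue than their tissue field. RNA levels do not give cAMP, enzyme activity or protein. Of 2632 values of members under other settings, 2517 kept their direction and their side of the threshold, 51 fell short of it, 12 passed it and 52 turned direction. The cause of each change was not tested. The replicate number as a block changed no call of a member, and moved the genes past the threshold with DA from 1439 to 1359 in M1 WT and from 4971 to 4906 in M2 WT. Residuals of same-numbered libraries correlated at a mean r of −0.021 in M1 (−0.178 to 0.103 over 18 pairs) and −0.016 in M2 (−0.169 to 0.179), so no pairing was used.

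Under median-of-ratios scaling the log2 change turned to 0.069 for Adcy7 and 0.015 for Prkaca with DA in M1 WT, −0.0022 for Prkacb with DA in M1 DRD5-/-, 0.0015 for Adcy7 in M1 DRD5-/- against WT, −0.039 for Adcy7 in the same with DA, and 0.041 for Adcy7 and 0.031 for Prkaca in the difference between the DA effects in M1. It turned to −0.0026 for Adcy7 and −0.0068 for Prkar1a with DA in M2 DRD5-/-, 0.037 for Adcy9 and 0.033 for Prkar2a in M2 DRD5-/- against WT, 0.025 for Adcy7 in the same with DA, and 0.017 for Gnas in M1 against M2 WT. Under quantile normalization it turned to 0.075 for Adcy7 and 0.00045 for Prkaca with DA in M1 WT, 0.0023 for Gnas with DA in M1 DRD5-/-, 0.011 for Prkar2a in M1 DRD5-/- against WT, −0.041 for Adcy7 in the same with DA, and 0.039 for Adcy7 and 0.008 for Prkaca in the difference between the DA effects in M1. In M2 it turned to 0.045 for Adcy9 and 0.019 for Prkar2a in DRD5-/- against WT, 0.078 for Adcy7 in the same with DA, and −0.023 for Prkar1a in the difference between the DA effects. Of these, only Gnas in M1 against M2 WT had passed the threshold. With no filter, median-of-ratios scaling or quantile normalization 1 member in place of 2 passed with DA in M1 WT.

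Leaving out each library in turn gave changes on both sides of 0 for members that did not pass. With DA in M1 WT these ran from −0.02 to 0.02 for Adcy7 and from −0.0038 to 0.02 for Gnas. With DA in M1 DRD5-/- they ran from −0.0015 to 0.069 for Adcy7, −0.053 to 0.048 for Prkaca, −0.025 to 0.035 for Prkacb, −0.0068 to 0.036 for Prkar1a, −0.037 to 0.039 for Prkar2a and −0.0068 to 0.073 for Pde7a. In M1 DRD5-/- against WT they ran from −0.044 to 0.021 for Adcy7 and −0.036 to 0.017 for Prkar2a, and for Adcy7 from −0.0081 to 0.043 in the same with DA and from −0.07 to 0.00024 in the difference between the DA effects. In M2 they ran from −0.022 to 0.18 for Pde7a with DA in DRD5-/-, −0.027 to 0.0082 for Adcy9 and −0.051 to 0.029 for Prkar2a in DRD5-/- against WT, and −0.011 to 0.17 for Pde7a in the same with DA. Members past the threshold with DA in M1 WT numbered 1 to 2, those in the difference between the DA effects in M2 3 to 5, and genes in M1 DRD5-/- against WT 36 to 94.

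At 2-fold, the genes past the threshold in M1 were 44 with DA in WT, 13 and, with DA, 60 in DRD5-/- against WT, and 41 in the difference between the DA effects, with 0 members in each. In M2 they were 626 with DA in WT, 3 with DA in DRD5-/-, 36 and, with DA, 741 in DRD5-/- against WT, and 750 in the difference between the DA effects, again with 0 members. Between M1 and M2, 3760 genes and 5 members passed in WT and 3702 genes and 5 members in DRD5-/-, and 954 genes and 1 member in the difference between the DA effects. At an adjusted p under 0.05, the genes past the threshold were 202 in M1 DRD5-/- against WT, 1836, with 2 members, in the difference between the DA effects in M1, 719 with DA in M2 DRD5-/- and 895 in M2 DRD5-/- against WT. In M1 DRD5-/- against WT, 43 genes passed with no filter and 36 with no intensity trend.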
